A study of Homo sapiens with 6 samples.

Results

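The chromatin accessibility around 10 genes for secreted ligands of the transforming growth factor β (TGF-β) superfamily was examined: *GDF6*, *BMP2*, *BMP4*, *BMP5*, *BMP6*, *BMP7*, *TGFB1*, *TGFB2*, *TGFB3* and *INHBA*. A peak belonged to a gene when its centre lay in the gene's GENCODE v44 body, or when it lay outside all protein-coding gene bodies and the gene had the nearest protein-coding start site. This gave 278 of the 152800 deposited peaks, 69 of them in gene bodies and 209 intergenic, and 276 had enough counts to be tested. Of the 278, 10 also lay in the body of another gene, which was *CCDC97*, *HNRNPUL1* or *TMEM91* at *TGFB1* and *IFT43* at *TGFB3*. A nearest start site is a label of position and does not show which gene a site acts on. The data are ATAC-seq counts, in which the Tn5 transposase cuts and tags open DNA, from the human melanoma cell line A375. The groups are 3 libraries of A375 with an empty vector and 3 of a stable A375 line, made by lentiviral transduction, that overexpresses *HMGB2* (HMGB2OE), a high mobility group protein that binds and bends DNA. The comparison asks where extra HMGB2 goes with higher or lower accessibility. The study lists the 3 libraries of a condition as technical replicates of an experiment done in a single round, so the p-values measure the spread between libraries of the same lines, and a difference between the lines from another source cannot be told apart from that of HMGB2.

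These ligands act outside the cell as dimers that bring type I and type II serine/threonine kinase receptors together. Receptors of BMPs and GDF6 mainly phosphorylate SMAD1, SMAD5 and SMAD9, whereas those of TGF-β and activin phosphorylate SMAD2 and SMAD3. BMP signals help to specify the neural crest, from which melanocytes arise, *GDF6* is a BMP ligand known from the dorsal neural crest and from melanoma, and TGF-β and activin are known to restrain the growth of normal melanocytes.

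The windows shown here as DNA carry the changes that held under every left-out library. They are the central 300 bases, in hg38 and on the plus strand, of 5 of the 6 ligand peaks that were called with all 6 libraries and again after leaving out any single library, and all lie outside the bodies of protein-coding genes. Capitals mark the words searched for on both strands: TGACTCA or TGAGTCA (AP-1), ACAAAGG (SOX), ATCAAAG (TCF/LEF), CATTCC (TEAD), CACGTG (E-box) and GTCTAGAC (SMAD). A word is a match of letters and not a measured binding site.
BMP4 (chr14:53999081-53999380, + strand): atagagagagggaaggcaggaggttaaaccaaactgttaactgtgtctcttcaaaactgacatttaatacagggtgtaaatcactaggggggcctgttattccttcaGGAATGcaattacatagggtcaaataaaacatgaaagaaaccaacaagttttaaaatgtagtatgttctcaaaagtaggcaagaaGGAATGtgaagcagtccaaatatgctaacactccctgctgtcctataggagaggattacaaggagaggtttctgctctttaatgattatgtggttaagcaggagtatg
BMP2 (chr20:6692820-6693119, + strand): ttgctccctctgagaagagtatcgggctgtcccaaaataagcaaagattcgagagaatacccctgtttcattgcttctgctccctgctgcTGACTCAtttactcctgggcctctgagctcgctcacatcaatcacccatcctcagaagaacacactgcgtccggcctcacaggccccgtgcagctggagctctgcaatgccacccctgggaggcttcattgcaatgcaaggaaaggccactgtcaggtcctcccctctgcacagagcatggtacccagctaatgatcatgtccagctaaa
INHBA, higher (chr7:41624868-41625167, + strand): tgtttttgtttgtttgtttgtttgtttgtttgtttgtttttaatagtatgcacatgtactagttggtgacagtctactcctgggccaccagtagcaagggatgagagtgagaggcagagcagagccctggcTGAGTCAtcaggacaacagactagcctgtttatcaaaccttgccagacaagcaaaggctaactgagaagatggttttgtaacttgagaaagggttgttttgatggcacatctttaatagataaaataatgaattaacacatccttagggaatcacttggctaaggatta
INHBA, lower, 126 kb (chr7:41579919-41580218, + strand): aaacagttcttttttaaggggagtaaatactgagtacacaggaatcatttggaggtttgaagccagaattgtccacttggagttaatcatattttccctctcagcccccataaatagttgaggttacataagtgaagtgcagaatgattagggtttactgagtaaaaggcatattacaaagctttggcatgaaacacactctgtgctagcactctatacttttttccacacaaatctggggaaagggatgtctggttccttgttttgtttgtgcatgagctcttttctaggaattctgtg
INHBA, lower, 693 kb (chr7:41013162-41013461, + strand): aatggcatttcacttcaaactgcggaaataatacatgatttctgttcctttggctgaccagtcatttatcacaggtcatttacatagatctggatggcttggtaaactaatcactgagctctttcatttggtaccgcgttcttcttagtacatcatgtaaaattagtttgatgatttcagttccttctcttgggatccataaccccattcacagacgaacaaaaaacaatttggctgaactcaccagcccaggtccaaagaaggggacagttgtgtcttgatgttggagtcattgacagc
The windows at *BMP2* and at the higher *INHBA* peak each held 1 AP-1 word, the *BMP4* window held 2 TEAD words, and both lower *INHBA* windows held none of these words. Outside its window, the lower *INHBA* peak at 693 kb did hold an AP-1 word, so the windows do not set higher and lower peaks apart by this word. Over the whole 502 bp of the peaks, an AP-1 word was in 34.1% of the 276 ligand peaks and 28% of all 150117 tested peaks. The shares were 36.6% against 29% for a TEAD word, 8.7% against 6.84% for TCF/LEF, 10.5% against 12.1% for SOX and 6.16% against 6.85% for an E-box. The SMAD word was in only 2 ligand peaks (0.725%, against 0.326%). The ligand peaks also lay outside gene bodies and promoters more often (68.5% against 38.5%), and within that class the AP-1 shares were 38.6% and 31.6%. The median GC content was 43.8% in ligand peaks and 46.2% in all tested peaks.

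The libraries held 26910189 to 45645294 counts in peaks. Between libraries of the same condition, counts differed by more than sampling noise (chi-square per degree of freedom 2.5 to 4.66), and the first principal component, with 35.7% of the variance, separated the conditions. The targeted gene had 2 peaks on its coding exons, at which counts can also come from the introduced copy. They rose by a log2 fold change of 1.67 (adjusted p = 0.000113) and 1.16 (adjusted p = 0.00822), and the second call was lost without empty vector replicate 2 or HMGB2OE replicate 2 (adjusted p up to 0.074). Of 8 genes that mark melanocytic cells, 6 had a promoter peak (152 to 3768 normalized counts, with none at *TYR* or *DCT*). So did 5 of 5 epithelial (123 to 740), 3 of 4 immune (151 to 248) and 3 of 4 endothelial genes (203 to 247). All 4 genes listed for the state of A375, *AXL*, *EGFR*, *NGFR* and *SOX9*, also had 1 (260 to 1644). Promoter peaks alone thus did not set the lineage apart.

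Ligand peaks moved in both directions in HMGB2OE cells. A peak was called at a Benjamini–Hochberg-adjusted p-value under 0.05 in edgeR's quasi-likelihood test over all tested peaks and a fold change of at least 1.5. Of the 276 tested ligand peaks, 10 were called higher (3.62%), beside 1.87% of all tested peaks, and 7 were called lower (2.54%), beside 1.44%. The lower calls came from few genes: 6 of the 7 were at *INHBA* and 1 at *TGFB2*. With no fold limit, 19 were higher (6.88%, against 3.44% of all tested peaks) and 17 lower (6.16%, against 3.03%). The normalized counts of the 3 HMGB2OE libraries did not overlap those of the 3 empty vector libraries at 90 ligand peaks (32.6%), beside 25.1% of all tested peaks. The median log2 fold change was 0.02 for ligand peaks and -0.0049 for all tested peaks, and the 5th and 95th percentiles were -0.53 and 0.61 against -0.50 and 0.54. These shares depended on the libraries and the tool. Without empty vector replicate 2, 4 ligand peaks were higher and 4 lower (1.45% each), close to the background of that fit, in which 1886 of all 150280 tested peaks were higher and 1552 lower (1.03%). Without HMGB2OE replicate 3, 6 of 276 were higher, against 1.26% of all tested peaks, and 3 lower (1.09%, against 1.1%). DESeq2 called 5 higher and 5 lower (1.81% each), against 1.39% and 1.11% of all tested peaks.

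All 17 called peaks were intergenic, and 13 lay more than 100 kb from the start site of their gene. Such distances were usual for these genes, called or not. Intergenic ligand peaks outside promoters lay a median of 218 kb from the nearest protein-coding start site, against 77.7 kb for all tested peaks of that class. Among intergenic peaks outside promoters, 33 of 189 at the ligands (17.5%) passed the p threshold, against 7.38% of all such peaks. The ligand peaks of this class also had a higher median normalized count (108 against 86.5), and whether this raised their share was not tested. Over all classes, *INHBA* held 5 higher and 9 lower peaks past the p threshold. Leaving out empty vector replicate 2 lost the call of 9 of the 17 called ligand peaks. It also lost the significance of 12 of the 19 ligand peaks past the p threshold but under the fold limit. Of the 25 peaks given to a ligand and within 3 kb of its own start sites, 1 passed the p threshold in edgeR's test and 1 with DESeq2. Of the 25, 5 had an unadjusted p-value under 0.05, and 0 were called by either tool. Among all promoter peaks 4.55% passed the p threshold, and 1.07% were called higher and 0.838% lower, so the share at the ligands' start sites was near the background. The calls fell at 7 of the 10 genes: 9 at *INHBA*, 2 each at *GDF6* and *BMP2*, and 1 each at *BMP4*, *BMP6*, *BMP7* and *TGFB2*. *BMP5*, *TGFB1* and *TGFB3* had 0 peaks past the p threshold with edgeR or DESeq2, and 5, 2 and 1 at an unadjusted p-value under 0.05. The share of all tested peaks under that unadjusted limit was not counted, so the unadjusted counts have no background beside them.

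**Figure D1:**
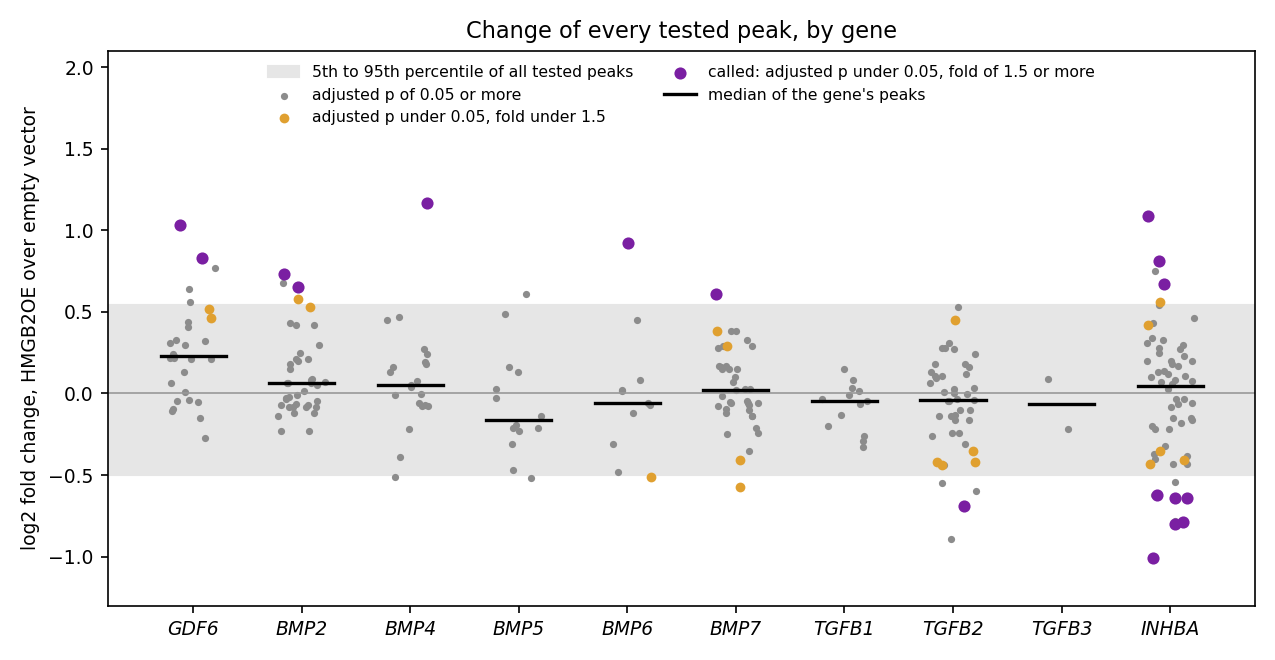
Log2 fold change of every tested peak of the 10 genes (HMGB2OE over empty vector), with a black line at the median of each gene and a grey band from the 5th to the 95th percentile of all tested peaks (-0.50 to 0.54). The median of *GDF6* is 0.23 and the called peaks of *INHBA* lie on both sides of 0.

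Accessibility over the whole locus was compared by summing the counts of all peaks of a gene and testing the sums over 18342 protein-coding genes. Of the 10 ligand genes, 1 was called, in the higher direction, at an adjusted p-value under 0.05 in edgeR's quasi-likelihood test, beside 5.84% of all genes called higher and 3.44% called lower. That gene was *GDF6*. Its summed normalized count was 2955, 2777 and 3006 in the empty vector libraries and 3345, 3419 and 3608 in the HMGB2OE libraries, so that every HMGB2OE library lay above every empty vector library (log2 fold change 0.25, standard error (SE) 0.0451, adjusted p = 0.00247). The adjusted p-value was 0.0364 without empty vector replicate 2, the highest over the alternatives, and 6.59e-05 with DESeq2, the lowest.

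The sums of the other 9 genes did not pass the threshold. *BMP5*, a ligand of bone and cartilage growth, had 3389, 3642 and 3507 in empty vector and 3262, 3355 and 3081 in HMGB2OE libraries (log2 fold change -0.12, adjusted p = 0.0953). *BMP7*, a ligand of kidney and eye development, had 13479, 13218 and 13732 against 14287, 14014 and 14758 (log2 fold change 0.091, adjusted p = 0.153). The conditions did not overlap at either gene, nor at *BMP4* (2816, 2809 and 2792 against 2865, 3019 and 2908). Each of these adjusted p-values missed the threshold. The share of all genes with sums that did not overlap was not counted. The log2 fold changes of the sums were 0.063 for *BMP4*, 0.041 for *BMP2*, 0.014 for *BMP6*, 0.0094 for *TGFB2*, -0.016 for *INHBA*, -0.032 for *TGFB1* and -0.16 for *TGFB3*, with adjusted p-values between 0.256 and 0.905.

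**Figure D2:**
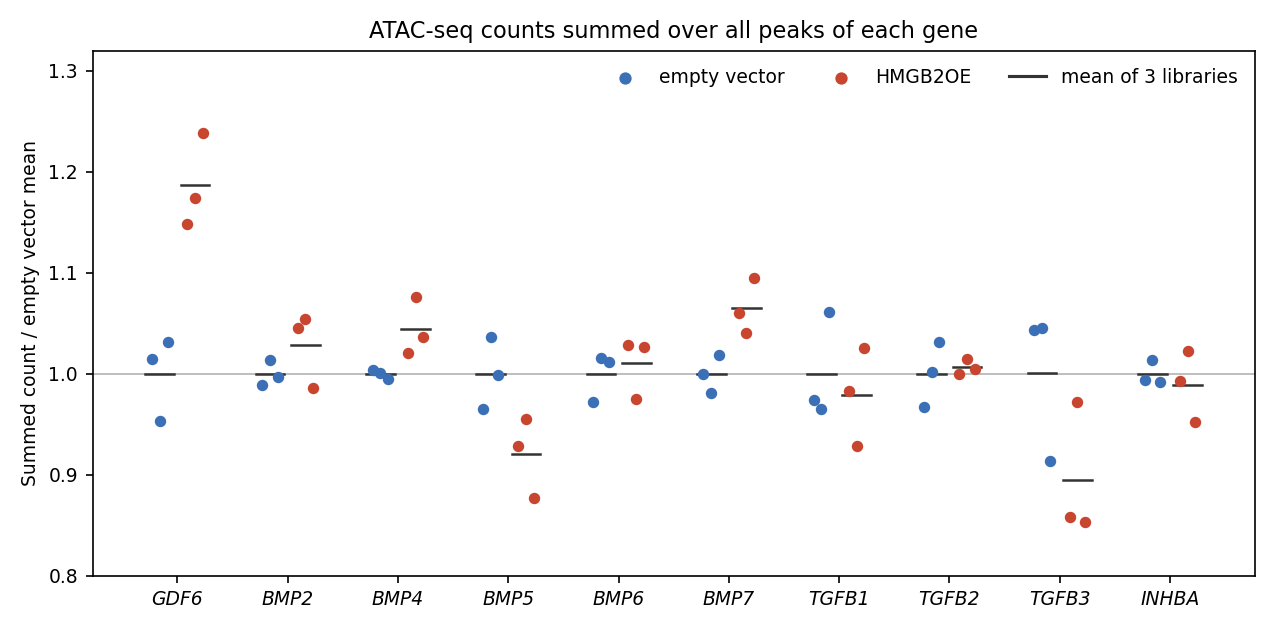
Counts summed over all peaks of each gene, normalized and divided by the empty vector mean, with 1 point per library and a line at the mean of 3 libraries. At *GDF6* the HMGB2OE libraries (3345 to 3608 summed counts) all lie above the empty vector libraries (2777 to 3006), while the sums of *INHBA* overlap.

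*GDF6* lies on the minus strand of chromosome 8 from 96142333 to 96160806. Most of its peaks had small positive changes: 22 of 29 had a log2 fold change above 0 and the median was 0.23. The libraries did not overlap between conditions at 8 of the 29 (27.6%, near the 25.1% of all tested peaks), and these 8 were higher. The median stayed between 0.21 and 0.35 when a library was left out and was 0.26 with GC offsets and 0.25 after centring 10 Mb windows. The other 73 tested peaks within 1 Mb of the gene had a median of 0.072. Of the 29 peaks, 4 passed the p threshold, all of them higher, against 3.44% of all tested peaks in that direction.

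The *GDF6* peak of smallest p-value was 27.8 kb downstream of the start site, from 96132789 to 96133290. It had normalized counts of 181, 174 and 186 in empty vector and 253, 262 and 259 in HMGB2OE libraries, with no overlap. Its log2 fold change of 0.52 (SE 0.12, adjusted p = 0.00767) was under the fold limit, and it passed the p threshold with any library left out. A peak 12.6 kb upstream had 154, 152 and 174 against 195, 241 and 225 (log2 fold change 0.46, adjusted p = 0.0318). It lost significance without empty vector replicate 1 or 2 or HMGB2OE replicate 2 or 3 (adjusted p up to 0.155).

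Both called peaks of *GDF6* were far downstream and low. The peak at 338 kb, from 95822153 to 95822654, had 45.9, 42.2 and 67.9 normalized counts in empty vector and 99.5, 75.1 and 102 in HMGB2OE libraries (log2 fold change 0.83, SE 0.217, adjusted p = 0.0183). Its call was lost without empty vector replicate 1 or 2 or HMGB2OE replicate 1 or 3 (adjusted p up to 0.113). The peak at 156 kb, from 96004151 to 96004652, had 27.8, 17.2 and 21.1 against 37.4, 50.9 and 43.9 (log2 fold change 1.03, SE 0.319, adjusted p = 0.0483). Of the fits that left out a library, the call stood only without empty vector replicate 1, and the adjusted p-value reached 0.19 without HMGB2OE replicate 2. It was also lost with GC offsets (adjusted p = 0.0596), with the replicate number as a block (adjusted p = 0.05) and with DESeq2 (adjusted p = 0.0763). At both peaks the conditions did not overlap.

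The promoter peak of *GDF6*, centred 0.106 kb upstream of the start site, had 114, 112 and 105 normalized counts in empty vector and 128, 179 and 141 in HMGB2OE libraries. The libraries did not overlap, but the difference did not pass the threshold (log2 fold change 0.44, adjusted p = 0.0919, with a range over alternatives from 0.034 to 0.417).

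*BMP2*, *BMP4*, *BMP6* and *BMP7* each had single distal peaks that rose, while the sums over their peaks did not pass the threshold. Higher past the p threshold were 4 of 40 tested peaks at *BMP2*, 1 of 21 at *BMP4*, 1 of 11 at *BMP6* and 3 of 39 at *BMP7*. Lower were 1 at *BMP6* and 2 at *BMP7*. The shares of all tested peaks were 3.44% higher and 3.03% lower. *BMP4*, a ligand used in dorsal patterning of the embryo, had the largest rise of all ligand peaks. Its peak at chr14:53998980-53999481 lies 40.5 kb upstream of the start site and had 30.6, 46.5 and 59.7 normalized counts in empty vector and 105, 115 and 91.2 in HMGB2OE libraries. The lowest HMGB2OE library lay above the highest empty vector library (log2 fold change 1.17, SE 0.215, adjusted p = 0.00106). It was the single *BMP4* peak of 21 past the p threshold, and the median of the 21 was 0.051, which changed to 0.0099 without empty vector replicate 3 and to -0.031 without HMGB2OE replicate 2.

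The rise at *BMP6*, whose product is known for setting hepcidin and so iron levels, lay at chr6:7705371-7705872, 20.5 kb upstream of the start site. The peak had 98.7, 112 and 106 normalized counts in empty vector and 187, 166 and 254 in HMGB2OE libraries (log2 fold change 0.92, SE 0.157, adjusted p = 0.000507), with no overlap. An intronic peak 4.91 kb downstream of the same start site went the other way. It had 336, 388 and 330 against 247, 273 and 223 (log2 fold change -0.51, SE 0.116, adjusted p = 0.00719), under the fold limit, and lost significance without empty vector replicate 2 (adjusted p = 0.062). The promoter peak between them had a log2 fold change of -0.061 (adjusted p = 0.78).

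At *BMP2*, a bone-inducing ligand, the peak of smallest p-value was at chr20:6692719-6693220, 74.7 kb upstream of the start site. It had 150, 154 and 147 normalized counts in empty vector and 227, 235 and 251 in HMGB2OE libraries (log2 fold change 0.65, SE 0.126, adjusted p = 0.00166). The other 3 *BMP2* peaks past the p threshold lay close together, 404, 428 and 440 kb downstream, in the body of the long non-coding RNA gene *LINC01428*, and all were higher. Their log2 fold changes were 0.73 (adjusted p = 0.0308), 0.58 (adjusted p = 0.00701) and 0.53 (adjusted p = 0.0499). The call at 404 kb rested on counts of 40.3, 61.1 and 62 against 76.5, 105 and 94.6, and was lost without empty vector replicate 1 or 2 or HMGB2OE replicate 2 or 3 (adjusted p up to 0.154). The result at 440 kb was lost with any single library left out (adjusted p up to 0.134, without empty vector replicate 1). The most accessible *BMP2* peak, 275 kb upstream with a mean of 1660 normalized counts, had a log2 fold change of -0.12 (adjusted p = 0.384).

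Peaks of *BMP7* moved both ways within a stretch between 194 and 266 kb downstream of its start site, where 5 peaks passed the p threshold. The peak at 194 kb was called higher, with 82, 72.3 and 80.7 normalized counts in empty vector and 108, 118 and 132 in HMGB2OE libraries (log2 fold change 0.61, SE 0.17, adjusted p = 0.0271). It was lost without empty vector replicate 2 or HMGB2OE replicate 2 or 3 (adjusted p up to 0.121). The peaks at 206 and 232 kb were lower, by log2 fold changes of -0.41 (adjusted p = 0.0336) and -0.57 (adjusted p = 0.00176), and those at 235 and 266 kb were higher, by 0.29 (adjusted p = 0.0181) and 0.38 (adjusted p = 0.00553). These 4 were under the fold limit. The peaks at 232 and 266 kb kept their significance with any library left out. The peak at 206 kb lost it without empty vector replicate 2 or HMGB2OE replicate 1 or 2 (adjusted p up to 0.202), and the peak at 235 kb without HMGB2OE replicate 1 (adjusted p = 0.12). The peak at 235 kb was the most accessible of the 39 at this gene, with 1331, 1470 and 1418 normalized counts in empty vector and 1790, 1646 and 1729 in HMGB2OE libraries.

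At *BMP5* none of 14 tested peaks passed the threshold and 5 had a log2 fold change above 0. The median was -0.16, but -0.068 with GC offsets and -0.062 or -0.072 when empty vector replicate 2 or 3 was left out. The peak of smallest p-value, 49.9 kb upstream, had 106, 133 and 91.3 normalized counts in empty vector and 68, 90.1 and 73.2 in HMGB2OE libraries (log2 fold change -0.52, adjusted p = 0.0863). No peak lay within 3 kb of a *BMP5* start site, and the most accessible *BMP5* peak was intronic, with a mean of 1801 normalized counts.

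*INHBA* encodes the βA subunit that forms activin A, and it held 62 peaks, the most of the 10 genes, and 9 of the 17 calls. Of these 3 were higher and 6 lower, the libraries did not overlap at 29 peaks (12 higher, 17 lower). These are 4.84% higher and 9.68% lower (1.87% and 1.44% of all tested peaks) and 46.8% not overlapping (25.1% of all tested peaks). The median over the 62 was 0.043 on the log2 scale, and it changed sign without empty vector replicate 3 (-0.055) or HMGB2OE replicate 2 (-0.017). The summed counts were 14683, 14982 and 14658 in empty vector and 14668, 15106 and 14072 in HMGB2OE libraries, which overlap.

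**Figure D3:**
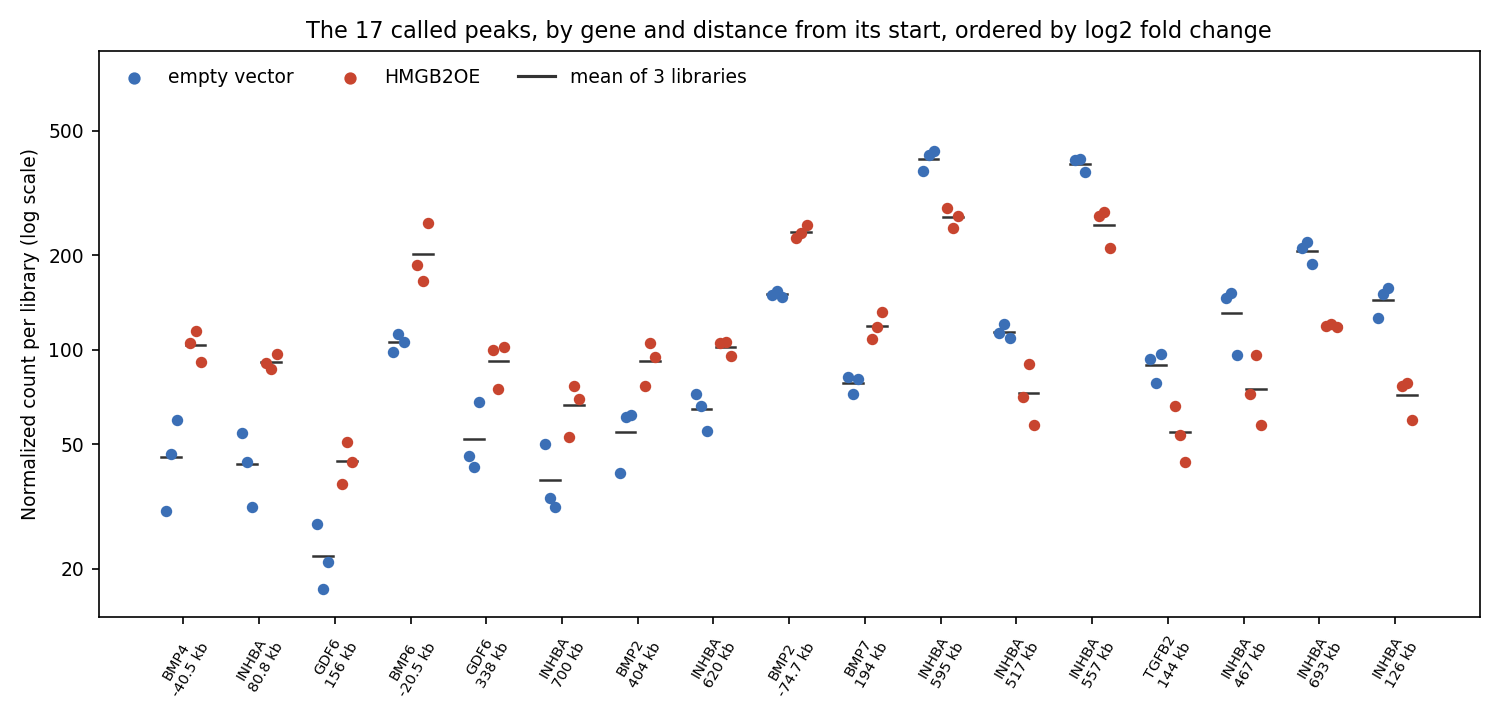
Normalized counts of the 17 called peaks in each library on a log axis, ordered by log2 fold change, with a line at the mean of 3 libraries; labels give the gene and the distance from its start site. Libraries of the conditions do not overlap at any of them, and log2 fold changes run from 1.17 at *BMP4* to -1.01 at *INHBA*.

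The largest changes at *INHBA* were neighbours with opposite signs. The peak at chr7:41624767-41625268, 80.8 kb downstream of the start site, had 54.2, 43.9 and 31.6 normalized counts in empty vector and 91, 86.7 and 96.8 in HMGB2OE libraries (log2 fold change 1.09, SE 0.218, adjusted p = 0.00245). The peak at chr7:41579818-41580319, 126 kb downstream, had 126, 151 and 157 against 76.5, 78.4 and 59.7 (log2 fold change -1.01, SE 0.168, adjusted p = 0.000398), and this was the smallest p-value among ligand peaks. Neither pair of conditions overlapped, and both peaks were called with any library left out.

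The other 7 calls at *INHBA* lay 467 to 700 kb downstream, in a stretch with no nearer protein-coding start site. Among the 30 peaks between 450 and 800 kb downstream, limits chosen after the values were seen, 5 were called lower and 2 higher, 18 had a log2 fold change below 0, and the median was -0.12. The peak at chr7:41013061-41013562, 693 kb downstream, fell from 211, 221 and 188 to 119, 121 and 118 normalized counts (log2 fold change -0.80, SE 0.135, adjusted p = 0.000493). The peak at 595 kb, in the long non-coding RNA gene *LINC01449*, fell from 372, 418 and 431 to 283, 245 and 268 (log2 fold change -0.62, adjusted p = 0.000724). The peak at 557 kb fell from 403, 405 and 370 to 267, 275 and 211 (log2 fold change -0.64, adjusted p = 0.000897). All 3 passed the p threshold with any library left out, the latter pair at times under the fold limit.

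The remaining 4 distal calls of *INHBA* depended on single libraries. The falls at 517 kb (log2 fold change -0.64, adjusted p = 0.03) and 467 kb (-0.79, adjusted p = 0.0118) were lost without empty vector replicate 2 or HMGB2OE replicate 1 or 3, and the former also without empty vector replicate 1, with adjusted p-values up to 0.132 and 0.0946. The rise at 620 kb (0.67, adjusted p = 0.0253) was lost without empty vector replicate 2 or 3 or HMGB2OE replicate 1 or 2 (adjusted p up to 0.0974). The rise at 700 kb (0.81, adjusted p = 0.0498) was called, of the fits that left out a library, only without empty vector replicate 1, and the adjusted p-value reached 0.21 without HMGB2OE replicate 2. It sat at the threshold and was also lost with library size only, no filter, GC offsets, centred windows and DESeq2 (adjusted p from 0.0501 to 0.0941).

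**Figure D4:**
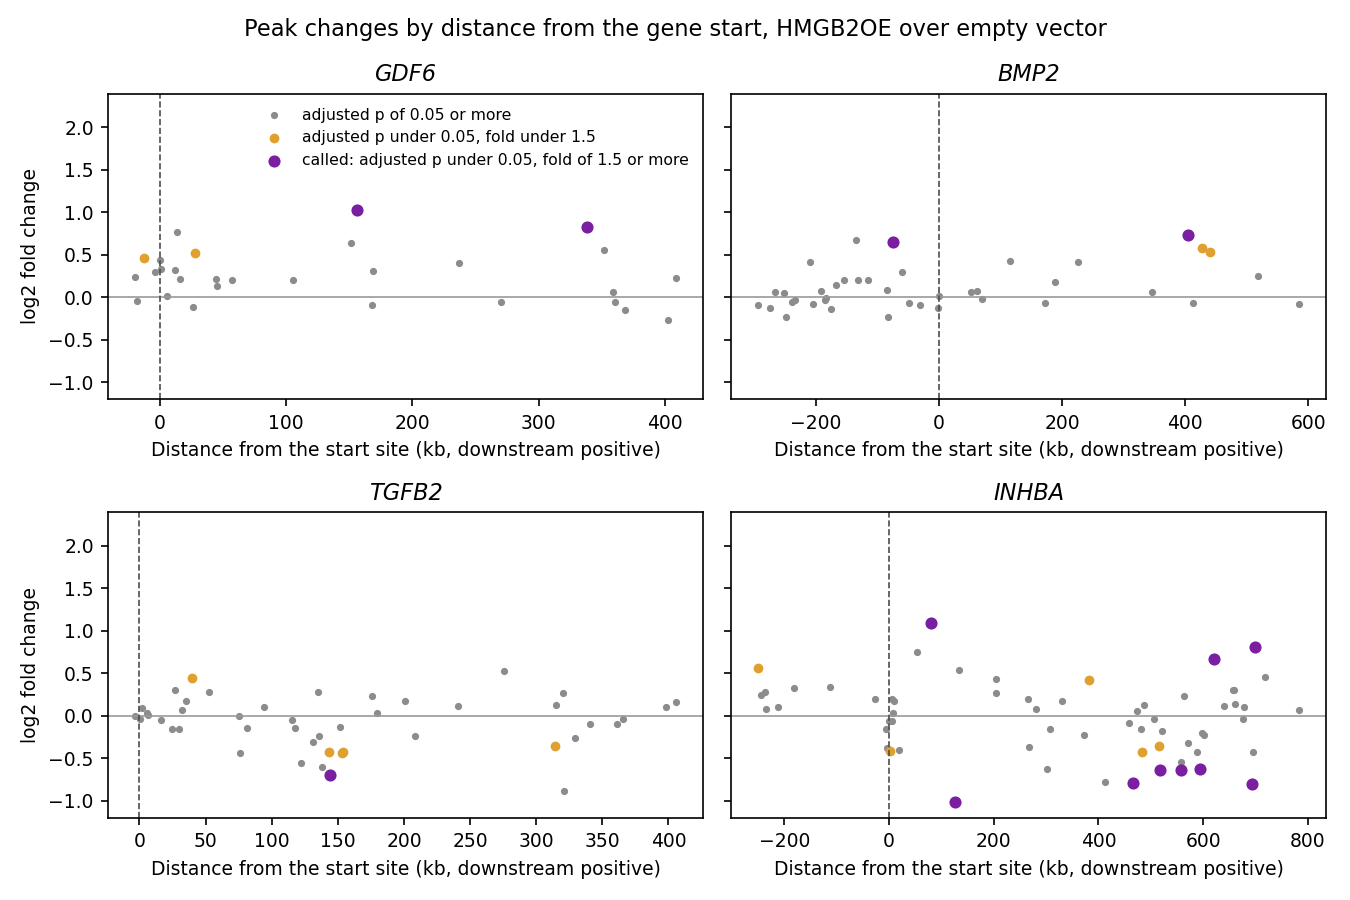
Log2 fold change of each tested peak against the distance from the start site of *GDF6*, *BMP2*, *TGFB2* and *INHBA*, in kb with downstream positive and a dashed line at the start site. Points past the p threshold are higher throughout at *GDF6* (4) and *BMP2* (4), while at *INHBA* called peaks lie on both sides of 0 and, between 450 and 800 kb, 5 of 7 lie below it.

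Closer to the gene, the *INHBA* promoter peak had the highest mean of the peaks within 3 kb of a ligand's own start sites. It had 1017, 1206 and 1058 normalized counts in empty vector and 1028, 1135 and 978 in HMGB2OE libraries, which overlap (log2 fold change -0.065, adjusted p = 0.722). A second peak 2.68 kb downstream of the start site, also in the body of *INHBA-AS1*, had 696, 722 and 688 against 547, 557 and 474. This fall (log2 fold change -0.41, SE 0.0922, adjusted p = 0.00594) was under the fold limit, did not overlap and passed the p threshold with any library left out. A peak 250 kb upstream rose from 338, 359 and 397 to 528, 495 and 592 (log2 fold change 0.56, SE 0.104, adjusted p = 0.00119), also just under the fold limit. Another 3 distal peaks passed the p threshold with smaller changes: those at 516 kb (log2 fold change -0.35, adjusted p = 0.0251) and 483 kb (-0.43, adjusted p = 0.0382) downstream were lower and that at 382 kb (0.42, adjusted p = 0.0188) was higher. All 3 were lost without empty vector replicate 2 or HMGB2OE replicate 1 or 2 (adjusted p up to 0.11, 0.236 and 0.0787), and the lower pair also without HMGB2OE replicate 3.

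Of the TGF-β isoforms, *TGFB2* had peaks past the p threshold, and *TGFB1* and *TGFB3* had none. *TGFB2*, whose isoform is needed in heart and craniofacial development, had 45 peaks. Of these 1 was called lower (2.22%, against 1.44% of all tested peaks) and 6 passed the p threshold. Past that threshold were 1 higher and 5 lower, beside 3.44% and 3.03% of all tested peaks. The call, 144 kb downstream at 218488998 to 218489499 on chromosome 1, rested on 93.1, 78.3 and 97.1 normalized counts in empty vector and 66.3, 53.4 and 43.9 in HMGB2OE libraries (log2 fold change -0.69, SE 0.207, adjusted p = 0.0402). Of the fits that left out a library, the call stood only without HMGB2OE replicate 1, and the adjusted p-value reached 0.153 without HMGB2OE replicate 3. It was also lost with library size only (adjusted p = 0.0512) and with DESeq2 (adjusted p = 0.0826). The peaks at 143, 153 and 154 kb were also lower (log2 fold changes -0.42, -0.44 and -0.42, adjusted p = 0.0172, 0.0225 and 0.0482), and these 4 neighbours all lie in the long non-coding RNA gene *LINC02869*. A peak at 314 kb was lower (-0.35, adjusted p = 0.0351) and an intronic peak at 39.5 kb was higher (0.45, adjusted p = 0.0217). These 5 results were all lost without empty vector replicate 2 and each without at least 3 further libraries, with adjusted p-values up to 0.0959, 0.0906, 0.259, 0.151 and 0.108 for the peaks at 143, 153, 154, 314 and 39.5 kb.

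*TGFB1*, which encodes the isoform best known for immune control and fibrosis, had 13 peaks, all in its body, with log2 fold changes from -0.33 to 0.15 and a median of -0.047 (0.055 after centring 10 Mb windows). Of the 13, 8 lay within 3 kb of a start site of any gene, but 2 within 3 kb of one of *TGFB1*. Some also lay in the bodies of other genes, so the median and the sum do not describe *TGFB1* alone. The smallest p-value at *TGFB1* was at an intronic peak 26.1 kb downstream (log2 fold change -0.26, adjusted p = 0.178). A peak 0.107 kb from its start site, with a mean of 573 normalized counts, lies in the body of *TMEM91* and so was given to that gene by the rule. Its log2 fold change was -0.13 (adjusted p = 0.48). *TGFB3*, needed for closure of the palate, had 2 peaks. The promoter peak had 566, 610 and 508 normalized counts in empty vector and 461, 543 and 445 in HMGB2OE libraries, which overlap (log2 fold change -0.22, adjusted p = 0.216).

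**Figure D5:**
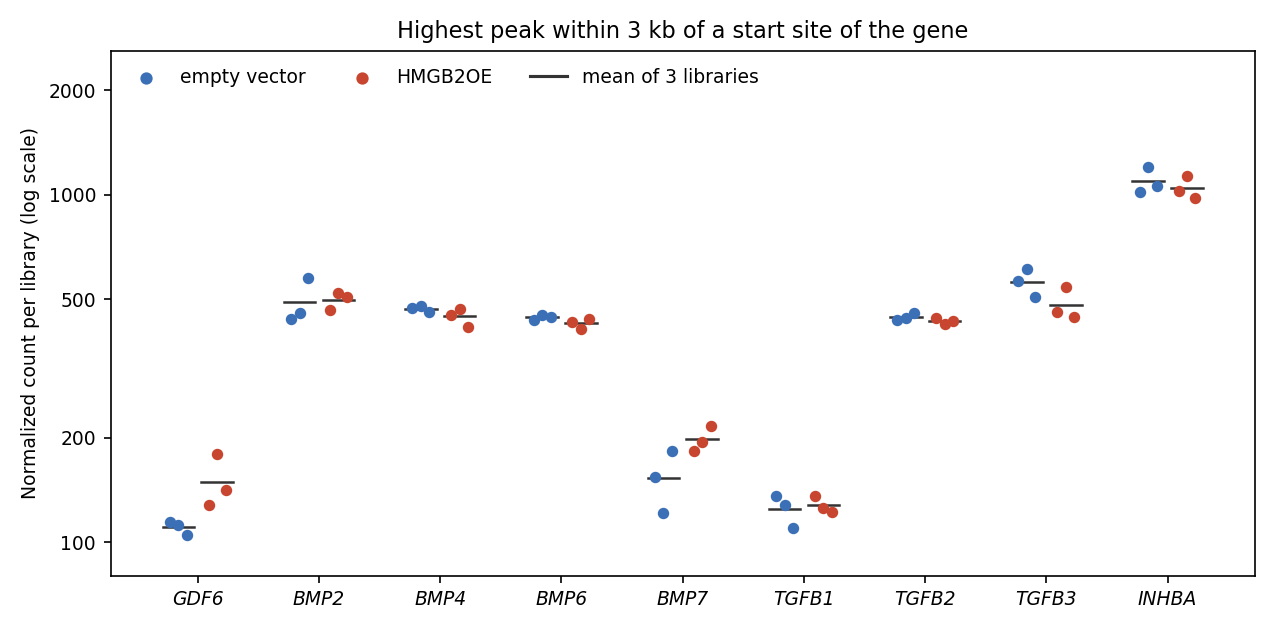
Normalized counts in each library, on a log axis, with a line at the mean of 3 libraries. Of the peaks given to each gene by the rule, the most accessible within 3 kb of its start sites is shown. *BMP5* had no such peak. Among the peaks shown, *INHBA* is highest (mean 1070), *TGFB1* (126) and *GDF6* (130) are lowest, and none of the 9 differences passed the p threshold. A peak 0.107 kb from the *TGFB1* start site, given to *TMEM91*, had a mean of 573 and is not shown.

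Among the 9 promoter peaks of highest mean, with 1 per gene, those of *GDF6* and *BMP7* had the largest differences and neither passed the threshold. The *BMP7* promoter peak had 154, 121 and 183 normalized counts in empty vector and 183, 194 and 216 in HMGB2OE libraries (log2 fold change 0.38, adjusted p = 0.115). The log2 fold changes were 0.018 at *BMP2*, -0.071 at *BMP4*, where the peak lies at a downstream start site 5.27 kb into the gene, 0.036 at *TGFB1* and -0.037 at *TGFB2*, with adjusted p-values from 0.736 to 0.947.

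The rest of the pathway was read from lists of genes, beside the 1.87% and 1.44% of all tested peaks called higher and lower. Of all gene sums, 5.84% were called higher and 3.44% lower. Sums were called higher at 2 of 13 receptor genes. They were called lower at 2 of 14 genes of antagonists and latent binding proteins and 1 of 19 other ligands. *FST* held 1 peak called higher and 1 called lower. Peaks of 13 receptor genes were called higher in 4 of 180 (2.22%) and lower in 1 (0.556%), and the summed counts of *TGFBR3*, the co-receptor betaglycan (log2 fold change 0.23, adjusted p = 0.0039), and *ACVR1C*, a type I receptor (0.23, adjusted p = 0.0462), were higher. Of 157 peaks at 8 SMAD genes, 1 was higher and 2 lower, both of these at *SMAD3*. Of 189 peaks at 14 genes of antagonists and latent binding proteins, 2 were higher and 4 lower, and the summed counts of *FST*, which binds activin, were lower (-0.26, adjusted p = 0.00123), as were those of *LTBP4* (-0.14, adjusted p = 0.0213). Of 99 peaks at 19 of 22 other ligands of the family, the 2 called peaks, at *BMP15* and *INHBB*, were lower, as were the summed counts of *BMP15* (-0.36, adjusted p = 0.0217).

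The list of 11 target genes had more higher peaks than the ligands. Of its 227 peaks, 22 were called higher (9.69%) and 1 lower (0.441%), with a median log2 fold change of 0.13, and *ID2* held 11 of the 22, with *MSX1* and *MSX2* holding 4 each. *ID2* encodes an inhibitor of basic helix-loop-helix factors, and *MSX1* and *MSX2* encode homeobox factors of the neural crest. Their summed counts were higher by log2 fold changes of 0.27 (adjusted p = 0.000551), 0.42 (adjusted p = 0.000194) and 0.20 (adjusted p = 0.00205), and those of *ID4* by 0.13 (adjusted p = 0.0407). The list was known to hold genes with called peaks when it was chosen, so its count is a description of these genes only.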

How the data were processed

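ATAC-seq was performed on A375 cells, with 3 empty vector and 3 HMGB2OE libraries grouped by the sample labels. According to the labels and methods, the authors trimmed with Trim Galore 0.6.7 and cutadapt 4.0, mapped to hg38 by Bowtie 2, used Picard against duplicates and MACS2 (control: public melanocyte data) for peaks, left out blacklisted regions, joined nearby peaks and counted reads by featureCounts. The deposited values are raw counts per peak and library, with no normalization and no pooling. The Tn5 shift, the treatment of reads with several alignments and whether peaks were called per library are not given in the sources used here; they could change weak or repetitive peaks.

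Counts were fitted with edgeR 4.0.16 in R 4.3.3 (filterByExpr, TMM on tested peaks, factors 0.975 to 1.02, quasi-likelihood F test without covariates, Benjamini–Hochberg adjustment) over 150117 of 152800 peaks, and, summed by gene, over 18342 genes. Peaks were called at an adjusted p-value under 0.05 with at least a 1.5-fold change, gene sums with no fold limit. Normalized counts were scaled to the mean effective library size (tested total times TMM factor). Standard errors are the size of the log2 fold change over the square root of F. Peaks were annotated with GENCODE v44; a promoter peak has its centre at most 3 kb from a protein-coding or lncRNA transcript start. Named peaks are each gene's promoter peak of highest mean, every peak with an adjusted p-value under 0.05 and that of smallest p-value; genes of a list were named by called peaks, then by p, or by a called sum. The *BMP2* and *BMP5* peaks of highest mean, and the start-site peak of *TMEM91* were named after their values were seen. The sequence of 1 peak is not reported here. The members and lists were chosen with earlier results of these data known.

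On simulated data, with 200 features changed by a log2 fold change of 1, 69% were recovered with 2 false calls among 149795 peaks, and 98.5% with 13 false calls among 18338 gene sums. Smaller changes, which most of the named peaks and sums had, were not simulated, so the recovered shares do not apply to them. Alternatives were DESeq2 1.42.0, other scalings, filters and fold limits, GC offsets, centred 10 Mb windows, a replicate block and leaving out each library. Deviations of same-numbered libraries correlated by -0.0886, 0.185 and 0.125, which does not settle whether the replicate numbers pair libraries.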

Additional observations from a re-analysis of the deposited data

How the results depend on the processing

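The call of *GDF6* by summed counts held under library-size scaling, DESeq2, the replicate block and each left-out library. Counts of calls moved more. With a lower fold limit, 5045 of all tested peaks were higher and 4283 lower, with 18 and 17 ligand peaks, and with no limit 5164 and 4546, with 19 and 17. DESeq2 called 5 ligand peaks higher (1.81%, against 1.39% of all tested peaks). With the replicate number as a block, 9 ligand peaks were higher and 7 lower, as were 1477 and 1007 gene sums against 1071 and 631 without the block. Leaving out a library gave 1821 to 2978 higher peaks over all tested, 4 to 9 higher and 3 to 7 lower ligand peaks, and 383 to 1300 higher and 157 to 846 lower gene sums, with the lowest gene counts without empty vector replicate 2. Of 272 fits of the 17 called ligand peaks under alternatives, 54 lost the call and none changed sign. Values near 0 changed sign: the *TGFB2* sum was -0.00038 with library size only, and leaving out a library gave -0.0069 to 0.039 for the *BMP6* sum, -0.066 to 0.014 for *TGFB1*, -0.015 to 0.034 for *TGFB2*, -0.04 to 0.011 for *INHBA*, and -0.048 to 0.15, -0.046 to 0.097 and -0.13 to 0.014 for the *BMP2*, *TGFB1* and *INHBA* promoter peaks. Depth limits the low peaks: the called *GDF6* peak at 156 kb held 18 to 61 raw counts per library. Giving every peak to its nearest start site changed 278 ligand peaks to 272, with 263 shared. The causes were not tested.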
